A study of Homo sapiens with 14 samples.

Results

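ALL-SIL is an established human T-cell acute lymphoblastic leukemia (T-ALL) cell line, described here from its 2 arrays of a set of 14 expression arrays. The labels chose these arrays: 1 was made from ALL-SIL cells cultured for 6 h with AS605240 and 1 from ALL-SIL cells cultured for 6 h with vehicle. The other 12 arrays held 1 such pair for each of 6 T-ALL lines, TALL-1, P12-ICHIKAWA, Jurkat, CCRF-CEM, Molt-4 and HPB-ALL, and they served as the comparison. AS605240 is a small molecule inhibitor of PI3K, and each line was treated at its own IC50. In the study's list of those values ALL-SIL and Jurkat have the same one, HPB-ALL a nearly equal one and the remaining lines a lower or higher one. Against those remaining lines, concentration and line cannot be told apart in the response. Each line is a single immortal clone or population with 1 culture per treatment in these data. The design asked what sets ALL-SIL apart at both treatments and whether it answered AS605240 as the other lines did.

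T-ALL arises when thymocytes are arrested during their maturation by the ectopic activation of a transcription factor, and T-ALL cases with TLX1 (HOX11) activation resemble cortical thymocytes. ALL-SIL is known for a rearrangement that activates TLX1 and for the amplified NUP214-ABL1 fusion, a constitutively active tyrosine kinase. Active ABL1 fusions phosphorylate STAT5, and STAT5 induces feedback inhibitors of cytokine signalling together with survival genes. PI3K generates the membrane lipid that recruits AKT, which keeps FOXO transcription factors out of the nucleus and, through mTORC1, sustains ribosome production.

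CISH, a feedback inhibitor that STAT5 induces, is the gene of this group that stood farthest above the other lines, and its upstream sequence is shown for the paired STAT motif, TTCNNNGAA, which reads the same on both strands. The sequence is from RefSeq, build GRCh38.p14, chr3:50611775-50612024, minus strand, 5′ to 3′, and holds the 250 bases before the annotated start of CISH with each match to the motif in capitals.
CISH: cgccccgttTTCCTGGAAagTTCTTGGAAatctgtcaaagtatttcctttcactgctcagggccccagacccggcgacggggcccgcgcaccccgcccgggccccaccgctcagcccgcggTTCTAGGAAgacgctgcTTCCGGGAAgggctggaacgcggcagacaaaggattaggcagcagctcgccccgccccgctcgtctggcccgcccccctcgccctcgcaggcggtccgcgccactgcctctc
The window held 4 matches, whose first bases lay 241, 230, 129 and 112 bases before the start. Of 35116 promoter windows of the same length in the table, 6.57% held at least 1 match and 0.0142% held at least 4. Of 43 genes in the lists of STAT5 targets and of cytokine receptors and JAK-STAT genes, 34 had a window in the table, and those of BCL6, CISH and LTA held a match. A gene was counted if any of its windows held a match, whereas 6.57% is a share of windows. The share over all genes was not counted. A match is a description of letters, and binding was not measured.

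All levels below are log2(signal + 16), a scale on which 4.0 is a signal of 0, so a difference against a gene at that floor depends on the offset. ALL-SIL had a signal over 50 for 44.6% of 19775 genes with vehicle and for 45.2% with AS605240, and the arrays of the other lines ranged from 45.2% to 47.5%. The 3′ to 5′ difference of ACTB probe sets, a sign of RNA length, was 0.51 and 0.63 on the ALL-SIL arrays and 0.13 to 0.55 on the others, and its part in the results was not tested. P12-ICHIKAWA and TALL-1 stood apart as a pair: their vehicle arrays correlated at r = 0.994 across genes with 2 genes over 4-fold apart, while the other 20 pairs of lines had r between 0.908 and 0.953 and 331 to 857 such genes. Results are therefore also given with the mean of that pair as 1 line. Vehicle levels of ALL-SIL correlated across genes most closely with P12-ICHIKAWA (r = 0.928) and least with Jurkat (r = 0.908). Of 10 T-cell markers, CD3D, CD7, LCK and BCL11B were well above the floor in ALL-SIL, and none of the 10 was called different. The remaining members are not named here, and the median difference of the 10 was -0.15, against -0.03 over all genes. On both ALL-SIL arrays 2 of the 10 lay above all 12 other arrays and 2 below. Over all genes those shares were 5.07% and 6.55%. The summed vehicle signal of the T-cell markers, 14249.6, lay within the 8515 to 16242 of the other lines. The summed signals of the B-cell markers (1141, against 182 to 2119.66) and myeloid markers (255, against 191 to 330.1) also lay within the range of the other lines, with MS4A1, PAX5, CD14, MPO and ELANE at 5.0 or lower in ALL-SIL. Most of the B-cell sum came from IGLL1, CD79A and CD79B, at vehicle levels of 9.63, 7.55 and 7.46. The NK-cell markers summed to 2888 in ALL-SIL and to 213 to 601 elsewhere, mostly from NKG7 and GZMB, while KLRD1, KLRB1, NCAM1 and NCR1 were at 5.2 or lower. NCR3, also of that list, read 6.53 with vehicle and 5.19 with AS605240, within the 4.85 to 7.30 of the others. The epithelial and fibroblast markers summed to 627, within the 336 to 883 of the other lines, and 1 of the 11 was called higher in ALL-SIL.

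The identity of ALL-SIL was measured on the mean of its 2 arrays against the 6 means of the other lines, so the p-values rest on the spread between those 6 lines and on the assumption that ALL-SIL varies as they do. At an adjusted p under 0.05 and a difference over 2-fold, 57 genes (0.288%) were higher and 75 genes (0.379%) lower in ALL-SIL. With P12-ICHIKAWA and TALL-1 as 1 line, the counts were 41 and 31. Both ALL-SIL arrays lay above all 12 other arrays for 1003 genes (5.07%) and below them for 1295 genes (6.55%), which is the background for every count of such genes below.

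TLX1, the homeobox factor that marks this T-ALL subtype, read 9.31 with vehicle and 9.35 with AS605240 in ALL-SIL. In the 12 other arrays TLX1 ranged from 4.0 to 5.30 with a median of 4.01. The groups did not overlap, and ALL-SIL was higher by 5.09 ± 0.44 log2 units (SE, limma, adjusted p = 0.00656). It was the 1 gene called of 18 T-ALL oncogenic transcription factors measured. TAL1, LMO2 and TLX3, which drive other T-ALL subtypes, were near the floor in ALL-SIL (4.11, 4.24 and 4.73 with vehicle), and each was also near the floor on some other arrays, whose highest values were 10.12, 9.32 and 10.95. MYC, a transcription factor of cell growth downstream of NOTCH1, read 10.93 on both ALL-SIL arrays, inside the range of 10.25 to 11.51. MYB read 10.77 and 10.88, below the 11.04 to 11.74 of the others, and was not called (adjusted p = 0.65).

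ABL1, the kinase of the fusion, read 9.90 and 10.01 in ALL-SIL and 8.29 to 9.33, with a median of 8.98, on the other arrays. Both ALL-SIL arrays lay above the range, and the difference of 1.10 ± 0.33 did not pass the adjustment (unadjusted p = 0.014, adjusted p = 0.461, limma). NUP214, the nucleoporin partner, read 7.42 and 7.39, within the 6.98 to 7.93 of the others (difference 0.07 ± 0.26). With all NUP214 probe sets averaged in place of the brightest, the difference turned to -0.34. FIBCD1, LAMC3 and AIF1L, the measured genes between ABL1 and NUP214 in the annotation, lay within the range of the other arrays. LAMC3 read 6.35 and 6.16 against 5.95 to 6.81. AIF1L was near the floor in ALL-SIL, 4.37 and 4.35 against 4.0 to 7.97. FIBCD1 was near the floor on all arrays, 4.41 and 4.42 against 4.28 to 4.69, and could not show a difference. FAM78A, the next measured gene beyond NUP214, read 9.17 and 9.03 against 6.05 to 8.20, and was not called (difference 1.62, adjusted p = 0.79). On the ABL1 side the next measured gene, EXOSC2, read 7.61 and 7.44, below the 7.65 to 8.36 of the others. ASS1, farther out, read 4.0 and 4.19 against 6.34 to 10.44. A probe set reads part of a transcript, and fusion transcripts were not distinguished from the normal ones.

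Of the SOCS family of feedback inhibitors of cytokine signalling, to which CISH belongs, CISH was called higher in ALL-SIL and SOCS5 lower. CISH, whose promoter is shown above, read 13.22 with vehicle and 13.44 with AS605240, against 6.97 to 8.22 with a median of 7.51 elsewhere. ALL-SIL exceeded the mean of the others by 5.79 ± 0.36 (adjusted p = 0.00153), and the 2 further CISH probe sets differed by 5.34 and 4.94. The probe set used and the one that differed by 5.34 are of the kind that shares probes with other transcripts. SOCS5 was at the floor, 4.0 on both arrays against 6.21 to 7.55 (difference -3.05 ± 0.44, adjusted p = 0.0485), and its further probe sets differed by -2.84 and -2.69. OSM, a cytokine and STAT5 target, read 7.82 and 7.37 against 4.41 to 4.92 (difference 2.93 ± 0.15, adjusted p = 0.000507). Its further probe set read 9.26 with vehicle but 4.96 with AS605240, the level of the highest other array (4.22 to 4.95). BCL2, the antiapoptotic protein, read 9.07 and 9.52 against 7.13 to 7.80 (difference 1.76 ± 0.25, adjusted p = 0.0438). These 3 were the called members of 20 STAT5 targets, 6 of which lay above all other arrays, and the median difference of the list was 0.53, against -0.03 over all genes.

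SOCS1 and SOCS2 are further feedback inhibitors of JAK kinases. SOCS1 read 9.91 and 9.99 in ALL-SIL against 4.59 to 7.08, and SOCS2 read 9.98 and 10.40 against 4.39 to 8.65. STAT4, which transmits interleukin-12 signals, read 8.67 and 8.76 against 4.36 to 6.04, and IL2RB, the beta chain of the interleukin-2 receptor, read 8.82 and 8.85 against 5.00 to 6.83. None of these 4 genes overlapped with the other lines, and none passed the adjustment (adjusted p of 0.0743 for SOCS1, 0.559 for SOCS2, 0.0715 for STAT4 and 0.197 for IL2RB). Of 29 cytokine receptor and JAK-STAT genes measured, CISH was called higher and PIM3 lower, 8 lay above all other arrays and 3 below. STAT5A, STAT5B, JAK1, JAK2 and IL2RG were within the range. The PIM kinases, which STAT5 also induces, were divided. PIM1 read 9.47 and 10.05 against 5.42 to 9.49, overlapping with the highest other array, and PIM3 was at the floor (4.09 and 4.0) against 8.20 to 9.73 (difference -4.86 ± 0.57, adjusted p = 0.0206).

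**Figure D1:**
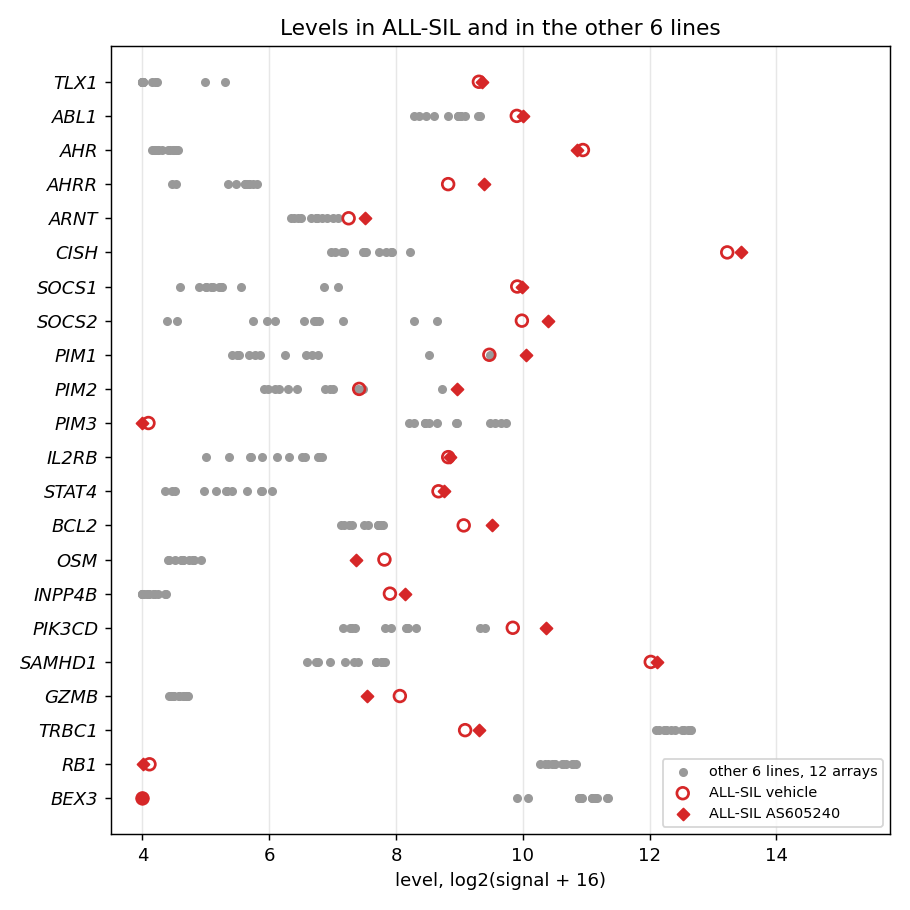
Levels of 22 genes as log2(signal + 16), a log scale, on each of the 14 arrays; grey points are the 12 arrays of the other 6 lines, the open circle is ALL-SIL with vehicle and the diamond ALL-SIL with AS605240. AHR, CISH, TLX1 and SAMHD1 in ALL-SIL lie far above every other array, and BEX3, PIM3 and the brightest RB1 probe set lie at the floor near 4, below every other array.

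AHR, the ligand-activated aryl hydrocarbon receptor, showed the largest positive difference among the genes called. AHR read 10.95 and 10.86 in ALL-SIL, while the 12 other arrays were between 4.16 and 4.56 with a median of 4.35. The difference was 6.55 ± 0.17 (adjusted p = 6.8e-05), and AHR was called under each of the 17 other settings. AHRR, the repressor that AHR induces, read 8.82 and 9.39 against 4.46 to 5.80, a difference of 3.67 ± 0.45 (adjusted p = 0.0245). CYP1A1 and CYP1B1, the classical AHR target genes, did not stand apart: CYP1A1 read 4.99 and 4.83 against 4.70 to 5.33 and CYP1B1 read 4.96 and 4.66 against 4.36 to 5.11. ARNT, the partner that AHR needs to bind DNA, read 7.25 and 7.51 against 6.34 to 7.09 (difference 0.68, adjusted p = 0.40). TIPARP, another AHR target, read 7.31 and 7.46 against 6.24 to 7.23, and was not called (difference 0.45, adjusted p = 0.88).

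Several secreted, surface and metabolic proteins had high levels in ALL-SIL and levels near the floor elsewhere. REG4, a secreted lectin of the gut, read 11.66 and 11.70 against 4.97 to 6.03, although 2 dimmer probe sets of REG4 differed by -0.13 and 0.09. CFTR, the chloride channel, read 9.91 and 10.34 against 4.0 to 5.83 (difference 5.53 ± 0.74, adjusted p = 0.0346), and 2 of its further probe sets differed by 4.75 and 3.86 while the other 3 were near the floor on all arrays. With P12-ICHIKAWA and TALL-1 as 1 line, CFTR was not called (adjusted p = 0.0926). The surface peptidases DPP4 (CD26) and ENPEP read 9.64 and 10.07, and 8.84 and 9.06, respectively, with highest values elsewhere of 5.50 and 5.06. ALDH3B2, an aldehyde dehydrogenase, differed by 5.11 ± 0.13 and was the 1 called gene of 18 aldehyde dehydrogenase and retinoid genes. The 15 genes with the largest positive difference also held SLC35F3, APOL4, NCALD, DOCK5 and DMTN, whose differences ranged from 4.07 to 5.64.

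Genes of nucleotide and interferon defence were also among them. SAMHD1, which degrades the deoxynucleotides that DNA synthesis needs, read 12.02 and 12.12 against 6.60 to 7.82, a difference of 4.76 ± 0.44 (adjusted p = 0.00786). Its probe sets disagreed in size: a second one, which like the first is of the kind that shares probes with other transcripts, differed by 4.49, while others differed by 2.10 and 0.92, the last reading 7.15 and 7.54 against 5.84 to 7.20. GBP4, an interferon-induced GTPase, read 11.42 and 12.22 against 5.90 to 6.94 (difference 5.53 ± 0.30). No gene of the interferon response list itself was called, 8 of its 36 members lay above all other arrays and 3 below, and its median difference was 0.29. GZMB, the granzyme of cytotoxic lymphocytes, read 8.06 and 7.54 against 4.42 to 4.72 (difference 3.21 ± 0.14), whereas its companion PRF1 read 5.57 and 5.41, below the 5.99 to 7.19 of the others.

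In the PI3K pathway, the target of AS605240, INPP4B was the 1 called gene of 25. INPP4B removes a phosphate from a lipid product of PI3K, and read 7.90 and 8.14 in ALL-SIL against 4.0 to 4.37 (difference 3.88 ± 0.15, adjusted p = 0.000294). PIK3CD, the delta catalytic subunit, read 9.84 and 10.36 against 7.16 to 9.40, a difference of 2.07 ± 0.56 that did not pass (adjusted p = 0.367). PIK3CG, the gamma subunit, read 8.52 and 8.87, within the range of 7.56 to 9.0. The other measured kinases of the pathway, such as PIK3CB, AKT1, AKT2 and PDPK1, were not called.

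RB1, the retinoblastoma tumor suppressor, was at the floor in ALL-SIL. Its brightest probe set read 4.11 with vehicle and 4.0 with AS605240, against 10.27 to 10.83 with a median of 10.56 elsewhere, a difference of -6.51 ± 0.19 (adjusted p = 9.67e-05). The further RB1 probe set disagreed: it read 8.10 and 8.15 in ALL-SIL, at the upper end of the 6.45 to 8.15 of the other arrays. The next 2 measured genes in the annotation were also at the floor. LPAR6, a lysophosphatidic acid receptor whose gene lies within RB1, read 4.0 on both arrays against 4.49 to 6.90, and RCBTB2 read 4.10 and 4.0 against 8.75 to 11.63 (difference -5.99, adjusted p = 0.12). SUCLA2, MED4, ITM2B and FNDC3A, further out on either side, lay within the range of the other lines, so the low values were those of the brightest RB1 probe set, LPAR6 and RCBTB2. DNA copy number was not measured.

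**Figure D2:**
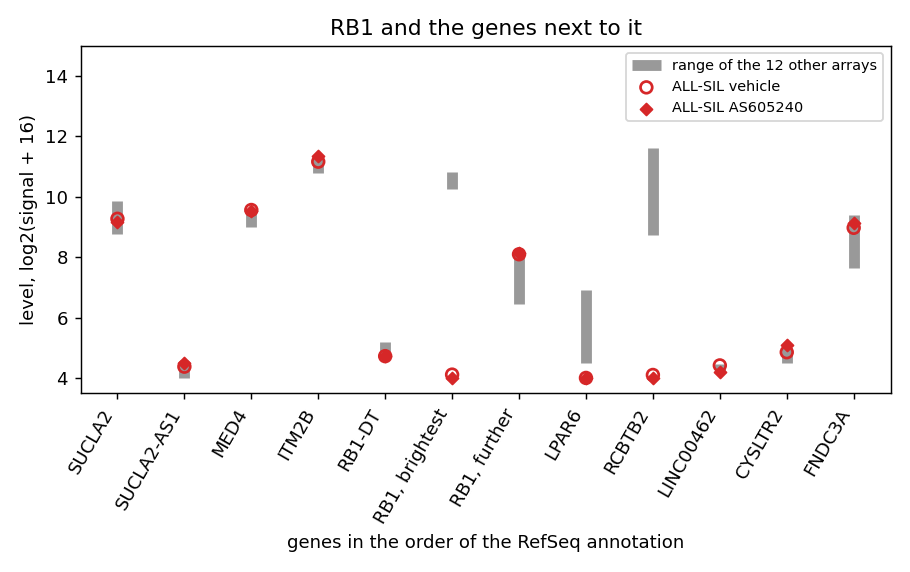
Levels as log2(signal + 16), a log scale, of both RB1 probe sets and of the measured genes next to RB1, in their order in the annotation; grey bars span the 12 arrays of the other lines, open circles are ALL-SIL with vehicle and diamonds ALL-SIL with AS605240. The brightest RB1 probe set, LPAR6 and RCBTB2 lie at the floor in ALL-SIL, while the further RB1 probe set reads 8.10 and 8.15.

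BEX3, an adaptor of the neurotrophin receptor, had the largest negative difference among the genes called. It read 4.0 on both ALL-SIL arrays and 9.91 to 11.35 elsewhere, with a median of 11.01 (difference -6.90 ± 0.46, adjusted p = 0.00185). Of its neighbours in the BEX and TCEAL cluster, several lay below all other arrays, and none of those named here was called. TCEAL9 read 4.0 on both arrays against 5.89 to 9.35, BEX2 read 4.0 on both against 4.09 to 9.85, and TCEAL4 read 4.15 and 4.08 against 4.94 to 8.90. BEX1, BEX5 and TCEAL3 were near the floor in ALL-SIL, as in some other lines. BEX4 (7.89 and 8.01) was within the range, and TCEAL8 (7.32 and 7.52) was below the 8.03 to 9.25 of the others but not at the floor. In windows of 15 neighbouring genes, the one from ARMCX1 to TCEAL4 had the lowest median difference of 10523 windows, -1.33, with 6 of 15 genes below all other arrays.

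The other genes that were lowest against the remaining lines belonged to many pathways. PRNP, the prion protein, read 4.0 on both arrays against 8.63 to 10.70, and its further probe set differed by -3.23. The PRNP call was lost with P12-ICHIKAWA and TALL-1 as 1 line (adjusted p = 0.0717). GGH, which strips glutamates from folates and from methotrexate, read 4.25 and 4.20 against 8.32 to 9.43 (difference -4.59 ± 0.37, adjusted p = 0.00534). S100A10, the annexin A2 ligand, read 4.37 and 4.31 against 8.68 to 10.07. SRSF8, a splicing factor of the SR family, differed by -4.75 ± 0.21, with 3 further probe sets between -4.21 and -2.73. HDHD5, SMIM30, HHIP-AS1, NT5C3B, PLEKHG4, TUSC3, RAP2B and B4GALT6 completed the 15, with differences from -5.42 to -4.64. HK2, the hexokinase of glycolytic tumors, was called with a smaller difference, 6.25 and 5.61 against 7.16 to 8.62 (-2.14 ± 0.24, adjusted p = 0.0177).

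The probe sets of a called gene often disagreed. Of the 57 genes called higher, 38 had a further probe set, bright or dim, and in 22 of these at least 1 was over 2-fold higher in ALL-SIL, while in 16 none was. Of the 75 genes called lower, 51 had one, at least 1 was over 2-fold lower in 34 and none was in 17. A probe set near the floor on all arrays could not show a difference.

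TLX1 leukemias are compared with cortical thymocytes, the stage that expresses CD1 and rearranges the T-cell receptor genes. Of 18 cortical thymocyte markers measured in ALL-SIL, 1 was called lower, none was called higher, 6 lay below all other arrays, and the median difference was -2.71. ELOVL4, a fatty acid elongase, was the called marker, at 4.32 and 4.03 against 7.59 to 9.17. RAG1, the recombinase, read 4.0 and 4.54 against 5.19 to 11.51, and PTCRA, the pre-T-cell receptor alpha chain, read 5.10 and 5.24 against 5.05 to 10.08. CD1A, CD1C, CD1D and CD1E were low in ALL-SIL, between 4.14 and 5.96, but some other line was equally low, with CD1E for example from 4.54 to 12.42 elsewhere. CD1B read 7.67 and 7.60, in the middle of its range of 4.22 to 12.45. CD8A was high, 9.25 and 9.11 against 4.07 to 10.50, CD8B was at the level of the lowest other array, and CD4 (7.82 and 8.15) was within the range.

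TRBC1, a constant segment of the T-cell receptor beta chain, was called lower in ALL-SIL. It read 9.09 and 9.30 against 12.09 to 12.65 (difference -3.19 ± 0.21, adjusted p = 0.00171), and 2 further probe sets differed by -3.86 and -2.78. Since TRBC1 is nearly identical to TRBC2, the probe sets may read both. CD7, an early T-cell marker, was above all other arrays at 11.13 and 10.96 against 8.02 to 10.27 but was not called (adjusted p = 0.464). Among the Notch receptors and targets, DTX4 was called lower (5.56 and 5.92 against 6.68 to 7.02) and NOTCH1 was above the range (9.90 and 10.21 against 8.16 to 9.67, adjusted p = 0.86).

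Some other stretches of neighbouring genes stood apart from the rest of the genome. The window from PRR5 to CERK had 10 of 15 genes below all other arrays and a median difference of -1.11. In it FAM118A was the called gene, at 5.26 and 5.08 against 6.00 to 6.58, ATXN10 read 10.32 and 10.04 against 10.79 to 11.27, and NUP50 read 9.05 and 9.29 against 9.84 to 10.69. Higher values ran from C4orf33 to RNF150, with a median difference of 0.88 and 7 of 15 genes above all other arrays. SETD7, a lysine methyltransferase, read 9.96 and 10.16 there against 7.92 to 9.15, and MAML3, a Notch coactivator, 7.29 and 7.77 against 4.0 to 5.87. The window from AP4E1 to PIGB followed with a median of 0.75, in which MAPK6 read 10.81 and 10.82 against 8.92 to 9.87. For scale, 98% of windows lay between -0.75 and 0.53.

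The response of ALL-SIL to AS605240 followed that of the other 6 lines for most genes those lines share. In the 6 lines without ALL-SIL, 96 genes (0.485%) were lower and 228 genes (1.15%) higher past 1.5-fold with an adjusted p under 0.05. ALL-SIL, which had no part in choosing them, moved in the same direction in 93 of the 96 and in 221 of the 228, while over all genes 47.3% of its changes were negative and 52.7% positive. Its median change was -0.75 over the 96 genes, where the median of the other lines' mean was -0.71, and 0.54 over the 228 genes, where it was 0.71. Past 1.5-fold in ALL-SIL were 76 of the lower and 100 of the higher genes. For 68 of the 228 higher genes the change of ALL-SIL was smaller than in every other line, and for 6 it was larger. Among the 96 lower genes these counts were 12 and 9. Over all genes the change of ALL-SIL lay below the range of the other 6 for 14.9% and above it for 12.5%, together 27.3%. Since the genes were chosen for their change in the other lines, a smaller change in a line outside the choice is favoured, and no gene of the 324 was called for a difference.

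**Figure D3:**
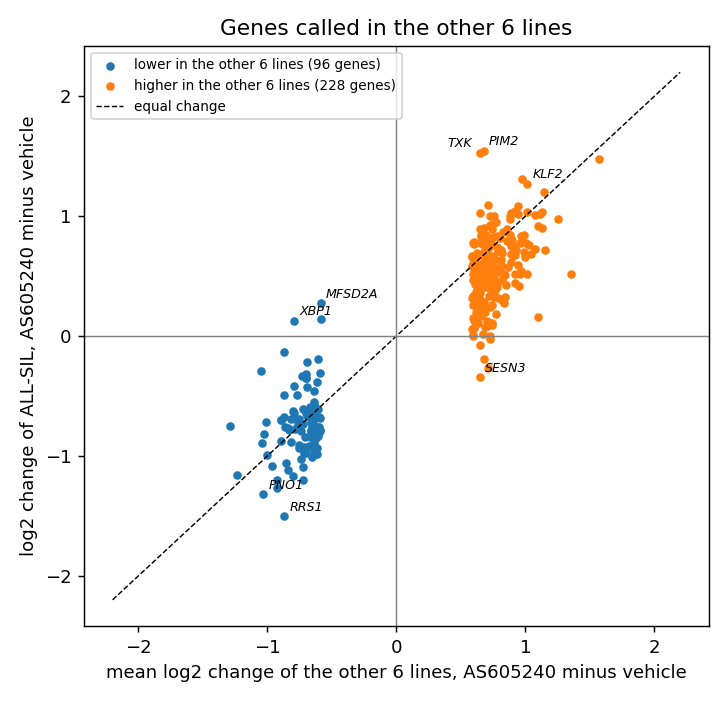
Log2 change (AS605240 minus vehicle) of ALL-SIL on the vertical axis against the mean log2 change of the other 6 lines on the horizontal axis, 1 point for each of 96 genes lower (blue) and 228 higher (orange) in the other lines; the dashed line is equal change. Nearly all points share the sign of the other lines, and more of the orange points lie below the dashed line than above it.

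Ribosome biogenesis genes had the largest negative changes among the shared genes in ALL-SIL. RRS1, which assembles the large subunit, went from 9.30 to 7.80, a change of -1.50, when the other lines changed by -1.30 to -0.29. PNO1, of the small subunit, went from 9.27 to 7.95 (-1.32, against -1.40 to -0.75), and PAK1IP1 from 8.31 to 7.04 (-1.27, against -1.14 to -0.70). AEN, a nuclease that p53 induces, and CTU2, a tRNA thiolase, each changed by -1.20. Of 63 ribosome biogenesis genes measured, 61 were lower in ALL-SIL and 22 were lower than in every other line, among them NOP2 (-0.83) and POLR1B (-0.85). Over all genes, 47.3% of the ALL-SIL changes were negative and 14.9% lay below every other line. The median change of the list was -0.59 in ALL-SIL and -0.59 to -0.20 in the others, ALL-SIL being the lowest by less than 0.01, against a median of 0.01 over all genes. No member passed the test of the difference.

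The largest increases among the shared genes were those of PIM2, TXK, ABTB1, FCGBP and KLF2. PIM2, a survival kinase, went from 7.42 to 8.96 (1.55, against -0.07 to 1.73 in the others), and TXK, a TEC family kinase, from 5.86 to 7.39 (1.53, against 0.11 to 1.14). ABTB1 changed by 1.48, FCGBP by 1.31 and KLF2, a quiescence factor that FOXO induces, by 1.27, each inside the range of the other lines. The list of FOXO targets and PI3K feedback genes, known to be induced when AKT is inhibited, had a median of 0.37 in ALL-SIL and 0.22 to 0.52 elsewhere. IRS2, the insulin receptor adaptor, changed by 0.87 and PIK3IP1, a PI3K inhibitor protein, by 0.49, both within the range. BMF, a proapoptotic BCL2 relative, changed from 6.66 to 7.89 (1.23, against 0.15 to 0.94 elsewhere, adjusted p = 0.978 for the difference).

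In most response lists the median of ALL-SIL lay inside the range of the other lines. The lists described next are those with ALL-SIL at or near an end, and in every list 1 of the 7 lines must be at each end. Over all genes, 14.9% of its changes lay below every other line and 12.5% above, the background for the counts here. Lysosome and autophagy genes had their lowest median in ALL-SIL, 0.12 against 0.16 to 0.31, with 13 of 41 members below every other line. NEU1, a lysosomal sialidase, read -0.04 against 0.17 to 0.68. The endoplasmic reticulum chaperones and unfolded protein response genes had their highest median in ALL-SIL, -0.097 against -0.39 to -0.11. The median of CCRF-CEM, -0.111, was close to it. Of the 27 members, 2 lay above every other line and 3 below, both under the shares over all genes. XBP1, the main transcription factor of that response, changed by 0.13, from 10.24 to 10.36, where the other lines changed by -1.17 to -0.24 (difference 0.92 ± 0.27, unadjusted p = 0.005, adjusted p = 0.924). Of 20 HIF1 and hypoxia targets, 9 lay above every other line, among them VEGFA (-0.13 against -1.25 to -0.23) and NDRG1 (1.47 against -0.06 to 1.23), and the list median was -0.11 against -0.57 to -0.09. Of 30 ATF4 amino acid response genes, 8 lay above every other line, such as PSAT1 (0.31 against -1.25 to -0.12) and SLC7A11 (0.84 against -1.98 to 0.52). No gene of these lists was called for its difference.

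**Figure D4:**
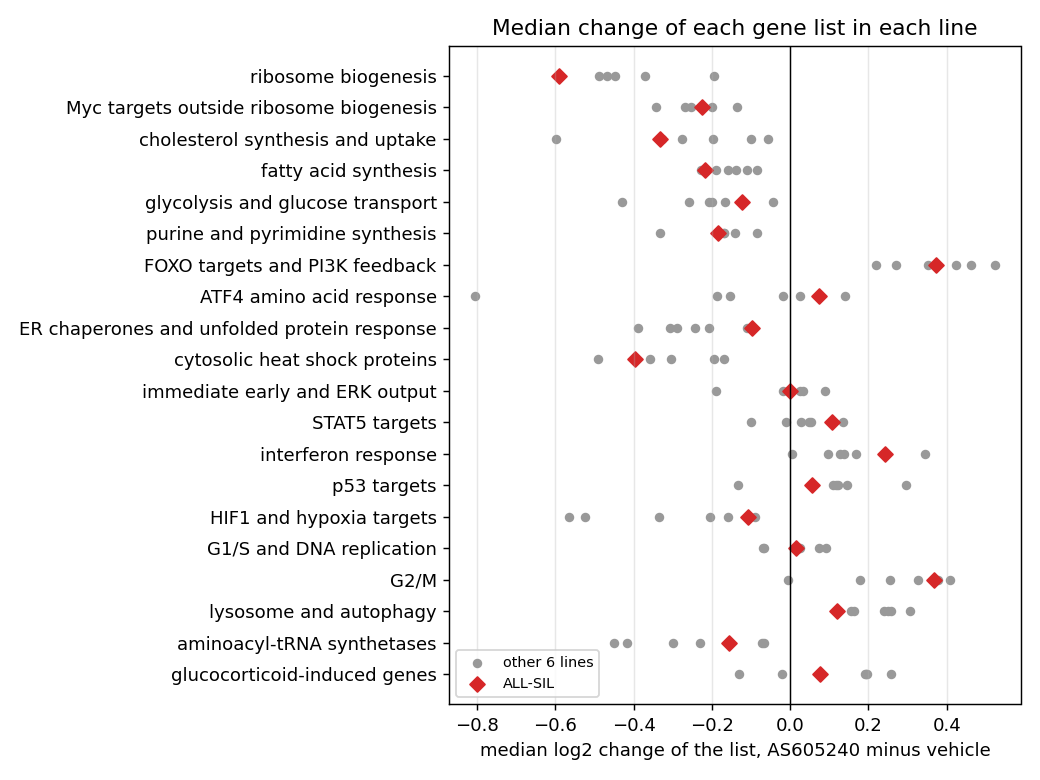
Median log2 change (AS605240 minus vehicle) of the members of each gene list, with grey points for the other 6 lines and a red diamond for ALL-SIL. ALL-SIL has the lowest median for ribosome biogenesis (-0.59) and for lysosome and autophagy (0.12) and the highest for ER chaperones (-0.10), and it lies among the other lines for the FOXO list (0.37).

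Genes that set ALL-SIL apart at both treatments changed by differing amounts with AS605240, and none was called for its change. The STAT5 target list had a median change of 0.11 in ALL-SIL and -0.10 to 0.14 elsewhere. CISH changed by 0.21 and SOCS1 by 0.08 with AS605240, TLX1 changed by 0.05 and AHR by -0.09. BCL2 changed by 0.45 where the other lines ranged from -0.44 to 0.06, and OSM by -0.45 against -0.18 to 0.40, but neither difference passed the adjustment. The second OSM probe set disagreed: it read 9.26 with vehicle and 4.96 with AS605240, a change of -4.30 against -0.12 to 0.74, and with both probe sets averaged OSM was called (difference -2.52, adjusted p = 4.91e-05). GBP4 changed by 0.80 against -0.05 to 0.28 (difference 0.72 ± 0.18, adjusted p = 0.755). ALDH3B2 changed by 0.63 against -0.30 to 0.0025 (adjusted p = 0.376, and 0.0283 at an offset of 64, where it was called). DMTN changed by 0.58 against -0.40 to 0.04, AHRR by 0.57 against -0.15 to 0.32 and SRSF8 by -0.49 against -0.31 to -0.06, and none of these differences passed. EGR1, an immediate early gene of ERK signalling, was not among the genes called for identity. It read 7.67 with vehicle and 6.10 with AS605240, a change of -1.57 against -0.70 to 1.96 (difference -2.12 ± 0.65, unadjusted p = 0.0068, adjusted p = 0.978).

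A change called different from that of the other lines was found for 10 of 19775 genes (0.0506%), and an unadjusted p under 0.05 for 889 (4.5%). F2RL2, the protease-activated receptor PAR3, read 4.93 with vehicle and 8.76 with AS605240 in ALL-SIL, a change of 3.83 against -0.08 to 0.08 in the other lines (difference 3.85 ± 0.16, adjusted p = 1.49e-07). FAM30A, a long noncoding RNA, went from 6.45 to 9.11 (2.66 against -0.13 to 0.24), ZBTB7C, a zinc finger factor, from 5.12 to 7.26 (2.14 against -0.22 to 0.09), and HSPA1L, a heat shock protein of the HSP70 family, from 6.42 to 8.38 (1.96 against -0.07 to 0.15). PTPN13, a tyrosine phosphatase, went from 10.68 to 6.72, a change of -3.96 against -0.17 to 0.58 (difference -4.08 ± 0.23, adjusted p = 4.47e-06). These 5 genes were called under every setting that tested them with the arrays paired by line. Without that pairing, which leaves the spread between lines in the error, 0 genes were called (162 at an unadjusted p under 0.05, limma), and PTPN13 had the lowest adjusted p of the 10, 0.0593. C3orf18 (1.77), ACSM3 (1.12), TIRAP (-1.51), ZNF442 (-1.64) and NCR3 (-1.34) completed the 10, with adjusted p between 0.0271 and 0.0373 (limma). Each lost its call under most other settings. The call was kept in 5 of 15 other settings for C3orf18, 3 of 14 for ACSM3 and 6 of 15 for TIRAP. For ZNF442 it was kept in 6 of 14 and for NCR3 in 5 of 15. With P12-ICHIKAWA and TALL-1 as 1 line, 6 higher and 4 lower genes were called. ACSM3 was not among them, and CALHM5, a calcium homeostasis modulator family member, was added (4.57 to 6.09, a change of 1.52 against -0.15 to 0.68).

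The further probe sets of these genes did not change alike, but most were too dim to bear on it. PTPN13 had one well above the floor, which read 8.61 with vehicle and 8.86 with AS605240, a change of 0.25. The second probe set of F2RL2 changed by 0.01 and never read above 5.06 in the other lines, where the probe set used reached 11.06. Those of ZBTB7C, HSPA1L and ACSM3 were below 5.0 on every array, and that of FAM30A went from 4.62 to 5.01 in ALL-SIL and reached 7.22 elsewhere. The further probe sets of TIRAP changed by 0.21 to 0.50 and those of NCR3 by -0.11 and -0.05, each from a level below 5.5 in ALL-SIL, while C3orf18 and ZNF442 had no other. The probe sets used for PTPN13, TIRAP and NCR3 were of the kind that the array's design marks as sharing probes with other transcripts. With 1 array per treatment, a change in ALL-SIL cells cannot be told apart from a change on 1 array, and in a culture fewer expressing cells and less RNA per cell cannot be told apart either.

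**Figure D5:**
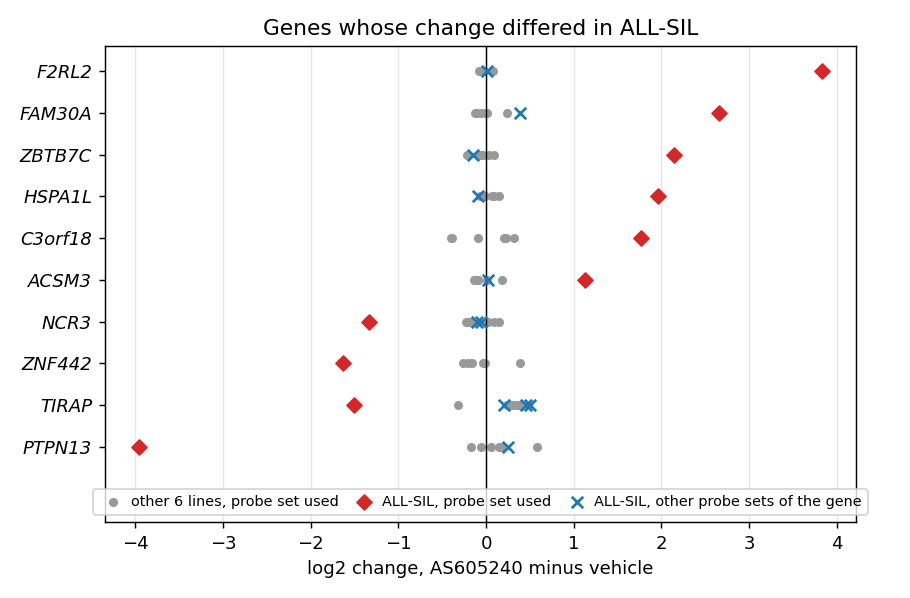
Log2 change (AS605240 minus vehicle) of the 10 genes called for a different change in ALL-SIL; red diamonds are ALL-SIL in the probe set used, grey points are the other 6 lines in it, and blue crosses are ALL-SIL in the other probe sets of the same gene. The diamonds lie between -3.96 and 3.83, far from the grey points, while every cross lies between -0.15 and 0.50.

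The next genes in order of p did not pass. FURIN, a proprotein convertase, read 6.41 and 7.40 (0.99 against -0.14 to 0.07, adjusted p = 0.0697), and was called at an offset of 64. It was also called with the probe sets of each gene averaged. Its difference there was the same 1.01 as in the main test, so no further FURIN probe set entered that call. TBX21, the T-bet factor of cytotoxic and helper T-cells, changed by -0.84, TNFRSF12A by -1.29 and GATA1 by -1.09, with adjusted p between 0.211 and 0.235. Among the genes called in the other lines, ALL-SIL moved against them in 10, none by a called difference. SESN3, a FOXO target that restrains mTORC1, read 4.34 and 4.0 (-0.34 against 0.32 to 0.93, adjusted p = 0.325), near the floor in ALL-SIL, and was called at an offset of 4 (adjusted p = 0.0332). Another SESN3 probe set went the other way, from 4.04 to 4.74 (0.70 against -0.14 to 0.62). ALDH1A2 changed by -0.26 against 0.49 to 0.87, MFSD2A by 0.28 against -1.15 to -0.19 and DGKE by 0.14 against -0.78 to -0.36.

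As a whole, the change of ALL-SIL was of ordinary size. Slopes were taken on the 10875 genes with a signal over 50 on at least 2 arrays. The slope of the ALL-SIL changes on the mean of the other 6 lines was 0.81. A slope of 1 would be a response as large as theirs only if that mean held no noise. The same slope for the other lines ranged from 0.62 in CCRF-CEM to 1.15 in P12-ICHIKAWA. Only P12-ICHIKAWA and TALL-1 (1.09) were over 1, and the mean used for each held the other line of that pair. The SD of what the slope left was 0.22 in ALL-SIL and 0.20 to 0.26 elsewhere. The correlation of its changes across genes was highest with P12-ICHIKAWA (r = 0.590) and lowest with CCRF-CEM (r = 0.395). Changes over 2-fold were seen upward for 40 genes and downward for 32 genes in ALL-SIL, and for 12 to 115 and 29 to 60 genes in the other lines.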

How the data were processed

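RNA of 7 cell lines was hybridized to 14 HG-U133 Plus 2.0 arrays. The values deposited by the authors were linear signal intensities of probe sets, summarized with iterPLIER by the methods of the paper, and the submitters' processing notes name PLIER and Affymetrix Expression Console 1.3.1.187. The normalization before the summary and the genome build are not given in the sources used here. No detection calls are in the table, and the number of arrays limits the precision.

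An offset of 16 was added and log2 taken. Of 54675 probe sets, 62 were controls, 41091 named 1 gene in the platform annotation, 1801 several and 11721 none. Symbols of 41037 were updated through the gene ID in a RefSeq table (GRCh38.p14), used otherwise only for the order of genes. Each gene was represented by its brightest probe set naming it alone.

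Tests were run in R 4.3.3 with limma 3.58.1 (lmFit, eBayes), on 7 line means or 7 changes, ALL-SIL against the other 6 lines, with Benjamini-Hochberg adjustment over 19775 genes. Calls needed an adjusted p under 0.05 and over 2-fold (identity) or 1.5-fold (response, the study's thresholds). Arrays of a line were paired by the cell line in the labels, and their correlation given the groups was 0.767. ALL-SIL has no replicate culture, so its own error was not measured. Tests were also run on simulated data, in which the lone line was drawn with the spread of the other 6 lines. That simulation could not check whether ALL-SIL varies as they do. Named genes were the 15 with the largest difference in each direction, most of the called list members, TLX1, ABL1 and NUP214. They also held the called response genes filled by smallest p, and the shared response genes with the largest change in ALL-SIL or an opposite one. The AHR, BEX, TCEAL, TRBC1 and window genes, SOCS5, CALHM5, and list members that were not called, were named after their values were seen. The members and lists were chosen with earlier results of these data known. Alternatives were other offsets, normalizations, filters, probe set rules, line sets and treatments, and, added after seeing the data, a fit without the pairing.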

Additional observations from a re-analysis of the deposited data

Results flagged for a closer look

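The change with AS605240 differed between ALL-SIL and the other 6 lines (limma, adjusted p under 0.05) in 10 genes, by 3.85 log2 units for F2RL2, 2.67 for FAM30A, 2.18 for ZBTB7C, 1.93 for HSPA1L, 1.79 for C3orf18, 1.16 for ACSM3, -4.08 for PTPN13, -1.72 for TIRAP, -1.59 for ZNF442 and -1.28 for NCR3. F2RL2, FAM30A, ZBTB7C, HSPA1L, ACSM3, PTPN13, TIRAP and NCR3 had further probe sets, whose ALL-SIL changes lay between -0.15 and 0.50. That of PTPN13 was well above the floor and those of F2RL2, ZBTB7C, HSPA1L and ACSM3 were near it, where a change could not be seen.

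Among the 70 groups of 6 values tested for a value far from its neighbours, 12 held one, where chance gives about 1 in 20, and most came in pairs from both arrays of a line. Molt-4 was high for DPP4 (5.50 with vehicle and 5.48 with AS605240) and TLX1 (4.98 and 5.30), below the ALL-SIL levels. CCRF-CEM was low for BEX3 (10.08 and 9.91), HPB-ALL for PLEKHG4 (7.95 and 8.045) and Jurkat for TUSC3 (7.84 and 7.61), all above the ALL-SIL levels. P12-ICHIKAWA stood apart in the change of F2RL2 (0.0814) and of TIRAP (-0.32).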

How the results depend on the processing

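At an offset of 4 the genes called lower in ALL-SIL numbered 128 and those called for a lower response 2, against 75 and 4 at the offset of 16. At an offset of 64 they numbered 26 and 1. Averaging all probe sets of a gene left 43 lower genes and turned NUP214 to -0.3409 (adjusted p = 0.97). Merging P12-ICHIKAWA and TALL-1 left 31. The 14 arrays with the line as a random block gave 142 higher and 208 lower genes, a fit that counts both ALL-SIL arrays. Leaving out 1 other line at a time gave 38 to 81 higher and 28 to 99 lower identity genes, the fewest lower genes without TALL-1 (28) and P12-ICHIKAWA (30), and 4 to 5 higher and 1 to 2 lower response genes. The share of genes called in the other 6 lines that moved the same way in ALL-SIL was 92.8433% at an offset of 4 and 99.1935% at 64, against 96.9136%. Of the values of named genes, 502 identity and 94 response values kept their side of the threshold and 41 and 53 lost it, and causes of these changes were not tested. Merging P12-ICHIKAWA and TALL-1 ended the calls of CFTR, DOCK5, PRNP, HDHD5, SMIM30, HHIP-AS1, TUSC3 and ACSM3. The response test is paired, with the 2 arrays of a line in 1 change. With no replicate block, a fit added after seeing the data, 0 higher and 0 lower response genes were called. The other counts stayed within 1.5 times the main ones.

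Precision is limited by 1 culture and 1 array per treatment in ALL-SIL, and by deposited values without detection calls, so genes near the floor have no order.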
